A study of Mus musculus with 8 samples.

Results

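The Id proteins and a group of basic helix-loop-helix (bHLH) repressors of muscle differentiation were followed in murine skeletal myoblasts, the cultured precursor cells of muscle fibres. The members are 9 genes, Id1, Id2, Id3, Id4, Twist1, Twist2, Msc, Bhlhe40 and Bhlhe41, chosen by name with earlier results of these data known. They were read by 12 of the 45281 probes on the array, out of 20289 named genes. All 9 were measured, and no filter on low values was applied. Where a gene had several probes, the probe that varied most across the arrays leads, and the others are given beside it.

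Total RNA was hybridised to Illumina WG-6 v2.0 arrays, 8 in all, in 4 groups of 2 biological replicates. The groups were myoblasts given a scrambled control siRNA at day 0, the same at day 1, myoblasts given an siRNA against G9a (siG9a) at day 0, and the same at day 1. G9a, encoded by Ehmt2, is a histone H3 lysine 9 methyltransferase. Every group therefore received an siRNA; the labels name no cell line or strain, and the starting point of the day count is not stated.

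Members of the MyoD family switch on muscle genes as dimers with E proteins, binding DNA at E-boxes (the letters CANNTG). Id proteins have the helix-loop-helix for dimerisation but no basic region, so a dimer with an Id protein does not bind DNA, and E proteins held in this way are not free for MyoD. Twist1, Twist2 and musculin (Msc, also called MyoR) do bind DNA and repress myogenic bHLH activity, while Bhlhe40 and Bhlhe41 bind E-boxes as repressors that also act in the circadian clock.

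The values are on a log scale against each probe's own reference level, taken as log2 because no base is given, so they compare arrays for 1 probe and never the abundance of different genes. The threshold for a call was 0.05 in limma after Benjamini-Hochberg adjustment over 29786 features (1 probe per named gene, plus unnamed probes), and errors are standard errors (SE) of that model. Replicate numbers 1 and 2 moved together across groups, so results are also given with the replicate number as a term, called the blocked fit. Array medians lay between -0.15 and 0.11. The standard deviation over probes differed by day, from 0.32 to 0.39 on the day 0 arrays and from 0.22 to 0.26 on those of day 1. The check of the siRNA, Ehmt2, stood at -1.67 ± 0.27 at day 0 and -1.34 ± 0.27 at day 1 in siG9a against control (n = 2 arrays per group), which was not called in limma over all features (adjusted p = 0.99985 and 0.99999). The median of 7 muscle markers (Myod1, Myf5, Pax7, Des, Cdh15, Itga7 and Chrna1) stood at -0.29 and -0.071 in the day 0 control and siG9a arrays of replicate 1, against -1.96 and -1.36 in those of replicate 2. At day 1 it stood at 0.68 and 0.59 in replicate 1 and at -0.19 in both arrays of replicate 2. Relative values do not show whether the markers of muscle or of other cell types were detected. Medians of the fibroblast, adipocyte, macrophage, endothelial and nerve lists lay between -0.27 and 0.42 on every array. In bulk RNA, fewer cells of a type and less RNA per cell cannot be told apart.

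The promoters of 3 members with the largest falls that the RefSeq table holds (build GRCm38.p6, 250 bases before to 50 after the start) are shown to give the E-box content of genes whose products act on E-box factors; capitals mark CANNTG on either strand. Id2 is at chr12:25096043-25096342 on the minus strand, Id3 at chr4:136143572-136143871 on the plus strand and Twist2 at chr1:91801211-91801510 on the plus strand.
Id2: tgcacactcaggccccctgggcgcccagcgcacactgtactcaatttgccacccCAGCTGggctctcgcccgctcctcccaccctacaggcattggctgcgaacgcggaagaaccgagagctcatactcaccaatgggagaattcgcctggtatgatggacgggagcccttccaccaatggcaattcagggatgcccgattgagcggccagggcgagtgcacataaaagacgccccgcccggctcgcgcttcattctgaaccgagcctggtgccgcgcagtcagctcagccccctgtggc
Id3: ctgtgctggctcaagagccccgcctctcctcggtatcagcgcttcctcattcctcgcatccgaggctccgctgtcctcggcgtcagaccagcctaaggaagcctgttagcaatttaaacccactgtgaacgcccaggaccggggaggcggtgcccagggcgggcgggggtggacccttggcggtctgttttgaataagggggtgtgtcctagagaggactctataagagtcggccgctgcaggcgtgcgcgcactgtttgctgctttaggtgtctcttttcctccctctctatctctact
Twist2: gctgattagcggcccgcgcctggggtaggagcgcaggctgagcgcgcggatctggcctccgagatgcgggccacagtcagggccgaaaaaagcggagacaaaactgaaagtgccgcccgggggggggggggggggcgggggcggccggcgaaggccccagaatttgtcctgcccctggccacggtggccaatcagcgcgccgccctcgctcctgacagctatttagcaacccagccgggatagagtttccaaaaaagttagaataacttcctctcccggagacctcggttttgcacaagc

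The Id2 window holds 1 CANNTG, which is also a CAGCTG at position -196 from the start, and the Id3 and Twist2 windows hold none. Of all 32851 windows of 300 bases in the table, 72.3% hold CANNTG and 16.3% hold CAGCTG. The palindrome GGCGCC, held by 11.9% of windows, occurs 1 time in Id2 and 1 time in Id4 and not in the other members' windows. Among the other members with a window, those of Twist1 and Id4 also lack CANNTG. The Bhlhe41 window holds 4, of which 1 is a CACGTG, a motif in 7.15% of windows. In all, 6 of the 9 members had a window. A match is a description of letters and not of a bound site.

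Between day 0 and day 1, Id1, Id3 and Twist2 fell several-fold in control cells and again in siG9a cells, and Id2 was called lower on 2 of its 3 probes, on the lead probe only in the blocked fit, with the third also below 0 but not called, while Id4, Msc and Bhlhe41 moved little. In control cells limma called 3 of 9 members, all lower, where 0.772% of all features were called lower and 1.14% in either direction. The blocked fit called 5 of 9 lower, adding Id2 and Twist1, where it called 5.16% of features lower and 9.13% in either direction. In siG9a cells limma again called 3 members lower, against 0.688% of features lower and 0.92% in either direction. There the blocked fit called 4, adding Id2, against 5.78% of features lower and 9.29% in either direction. No member was called higher in either. The members were chosen with earlier results of these data known, so the counts beside these shares are a description. The median change of the 9 members was -0.62 in control and -0.30 in siG9a, beside medians over all features of 0.0093 and 0.090.

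**Figure D1:**
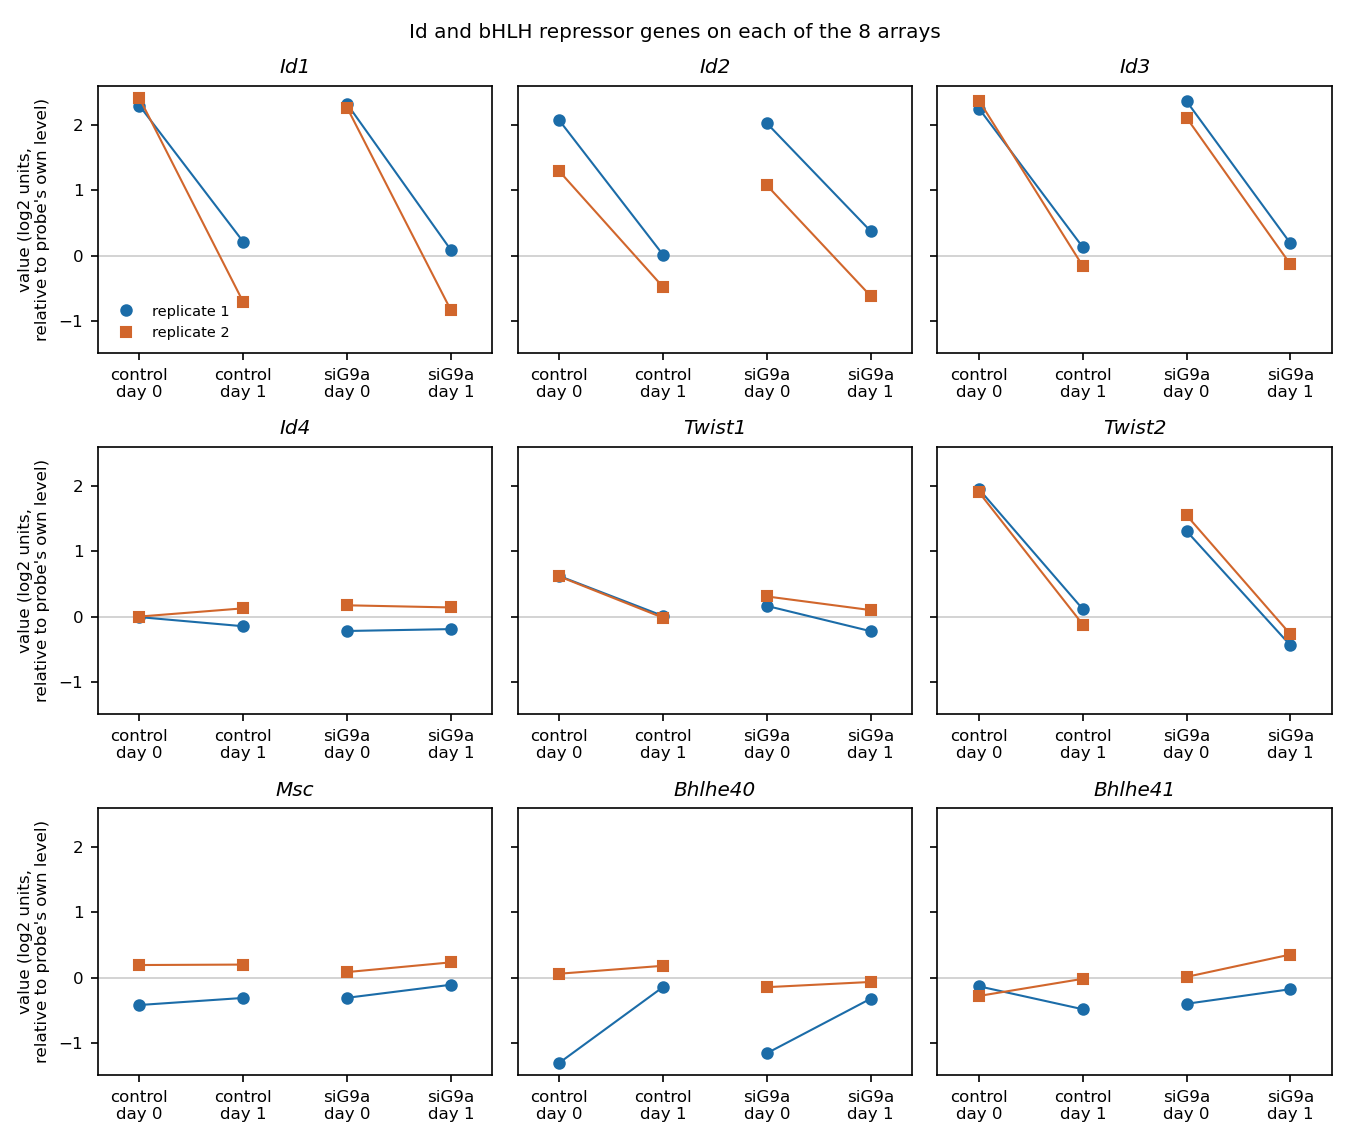
Values of the 9 members' lead probes on the 8 arrays (vertical axis, log2 units relative to each probe's own level), by group, with circles for replicate 1 and squares for replicate 2 and lines joining day 0 to day 1 within a replicate number. Id1, Id2, Id3 and Twist2 are lower on every day 1 array than on every day 0 array, and Bhlhe40 rises in replicate 1 (by 1.16 in control) but hardly in replicate 2 (by 0.12).

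Id1, an inhibitor of DNA binding that is a classic target of bone morphogenetic protein (BMP) signalling, stood at 2.30 and 2.41 in the control arrays of day 0 and at 0.21 and -0.71 in those of day 1. In siG9a cells it stood at 2.32 and 2.27 at day 0 and at 0.090 and -0.83 at day 1. The day 0 arrays were close together in both treatments, and at day 1 replicate 2 was lower than replicate 1 by 0.92 in each. The change was -2.60 ± 0.35 in control, a 6.07-fold fall if the base is 2 (limma adjusted p = 0.0197, blocked 0.0003), and -2.67 ± 0.35 in siG9a (adjusted p = 0.0179, blocked 0.00031). Only 10 of 29786 features fell further in control and 7 in siG9a. In the fit without the block the control call was lost without control day 0 replicate 1 (-2.66, adjusted p = 0.102), without control day 0 replicate 2 (-2.54, adjusted p = 0.13) and without control day 1 replicate 2 (-2.14, adjusted p = 0.0541). The siG9a call was lost without siG9a day 0 replicate 1 or 2 (adjusted p = 0.0728 and 0.128) and without siG9a day 1 replicate 2 (0.086).

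Id3, which binds E proteins as Id1 does, stood at 2.25 and 2.37 in control at day 0 and at 0.13 and -0.16 at day 1. Its siG9a values were 2.36 and 2.11 at day 0 and 0.19 and -0.13 at day 1. At day 1 the replicates lay closer together than those of Id1, at day 0 they lay further apart, and no day 1 array reaches any day 0 array. The change was -2.33 ± 0.20 in control (adjusted p = 0.00664 in limma) and -2.21 ± 0.20 in siG9a (adjusted p = 0.00871). In control 14 features fell further. Without the block the control call was lost without control day 0 replicate 1 or 2 (adjusted p = 0.0626 and 0.0507), and the siG9a call without replicate 2 of siG9a day 0 or day 1 (0.0537 and 0.0648).

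Id2, an Id protein that can also bind the retinoblastoma protein, was read by 3 probes that did not move by the same amount. On the lead probe, ILMN_1228557, control stood at 2.07 and 1.29 at day 0 and at 0.016 and -0.48 at day 1, and siG9a stood at 2.03 and 1.08 at day 0 and at 0.38 and -0.61 at day 1. Replicate 2 was lower than replicate 1 in all 4 groups, by 0.49 to 0.99. The change of -1.91 ± 0.43 in control was not called in limma (adjusted p = 0.0871) but was in the blocked fit (adjusted p = 8.5e-05), whose SE was 0.13. In siG9a it was -1.67 ± 0.43 (adjusted p = 0.155, blocked 0.000182).

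The second Id2 probe, ILMN_1236868, which the platform lists under the older symbol Idb2, gave -1.87 ± 0.31 in control and -1.90 ± 0.31 in siG9a. Fitted among all 45281 probes, both changes were called in limma without the block (adjusted p = 0.0323 in each). The third, ILMN_2887239, shares its transcript record with the lead probe and gave only -0.72 ± 0.31 and -0.52 ± 0.31 (adjusted p = 0.617 and 0.921, blocked 0.0693 and 0.183). Its siG9a arrays at day 0 stood far apart, at 1.05 and -0.014. The Id2 change thus differed in size between probes, from -0.72 to -1.91 in control.

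Id4, the remaining Id family gene, showed no such fall on either probe. Its lead probe, listed as Idb4, stood at -0.0042 and 0.0042 in control at day 0 and at -0.14 and 0.13 at day 1. The changes were -0.0070 ± 0.21 in control, with a 95% interval from -0.48 to 0.47, and -0.0020 ± 0.21 in siG9a. The other probe, ILMN_2678714, gave -0.052 ± 0.19 and 0.12 ± 0.19. Over both probes the Id4 values ran from -0.22 to 0.25. Since detection is unknown here, this does not tell a steady transcript from one too weak to read. The interval of Id4 in control reaches no fall as large as those of Id1 or Id3. That holds for the probe's reading, and not for the transcript if it was too weak to read.

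Twist2, a repressor of MyoD and MEF2 activity also called Dermo1, stood at 1.95 and 1.90 in control at day 0 and at 0.12 and -0.12 at day 1. In siG9a cells it stood at 1.31 and 1.55 at day 0 and at -0.44 and -0.27 at day 1. The days do not overlap in either treatment, and at each day both siG9a arrays lie below both control arrays. The change with time was -1.93 ± 0.18 in control (limma adjusted p = 0.00835) and -1.78 ± 0.18 in siG9a (adjusted p = 0.00971). Without the block, leaving out control day 0 replicate 1 or 2 ended the control call (adjusted p = 0.0877 and 0.0507), and leaving out replicate 2 of siG9a day 0 or day 1 ended the siG9a call (0.0775 and 0.0653). With the block, Id1, Id2, Id3 and Twist2 were called in both treatments whichever array was left out.

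Twist1, its close relative that sequesters E proteins and represses MyoD, moved less. It stood at 0.63 and 0.62 in control at day 0 and at 0.014 and -0.014 at day 1, so the control replicates nearly coincide. In siG9a it stood at 0.17 and 0.31 at day 0 and at -0.22 and 0.10 at day 1. The control change of -0.62 ± 0.18 was not called in limma (adjusted p = 0.195) and was called in the blocked fit (adjusted p = 0.0102). In siG9a the change was -0.30 ± 0.18 (adjusted p = 0.927, blocked 0.172). The blocked call in control was lost without control day 0 replicate 1 (-0.54, adjusted p = 0.1) and without control day 1 replicate 2 (-0.53, adjusted p = 0.118).

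Musculin, Bhlhe40 and Bhlhe41 did not share the fall. Msc stood at -0.42 and 0.20 in control at day 0 and at -0.31 and 0.20 at day 1; in siG9a it stood at -0.31 and 0.088, then at -0.11 and 0.24. Replicate 2 was higher than replicate 1 in every group, by 0.34 to 0.61, and the change with time was smaller than that gap, at 0.058 ± 0.28 in control and 0.17 ± 0.28 in siG9a. Bhlhe41 stood at -0.13 and -0.28 in control at day 0 and at -0.48 and -0.015 at day 1, a change of -0.044 ± 0.25. Its siG9a values were -0.40 and 0.015 at day 0 and -0.17 and 0.36 at day 1, a change of 0.28 ± 0.25. Detection of Msc and Bhlhe41 is also unknown, so their readings do not tell a steady transcript from one too weak to read.

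At day 0, Bhlhe40 differed more between the replicates than the lead probe of any other member. In replicate 1 it stood at -1.30 in control and -1.15 in siG9a at day 0 and at -0.14 and -0.32 at day 1, rises of 1.16 and 0.83. In replicate 2 it stood at 0.063 and -0.14 at day 0 and at 0.18 and -0.063 at day 1, rises of 0.12 and 0.080. The mean change was 0.64 ± 0.45 in control and 0.46 ± 0.45 in siG9a, and neither was called (limma adjusted p = 0.9999 and 0.981, blocked 0.177 and 0.297). In the blocked fit without control day 0 replicate 2 the control change was called, at 1.06 (adjusted p = 0.041). At day 0, where the replicates of Bhlhe40 were 1.36 apart in control and 1.01 in siG9a, the muscle markers were also apart, being lower in replicate 2. At day 1 the median of the markers was again lower in replicate 2, while the replicates of Bhlhe40 were 0.32 apart in control and 0.26 in siG9a. The part of the markers in the Bhlhe40 difference was not tested.

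**Figure D2:**
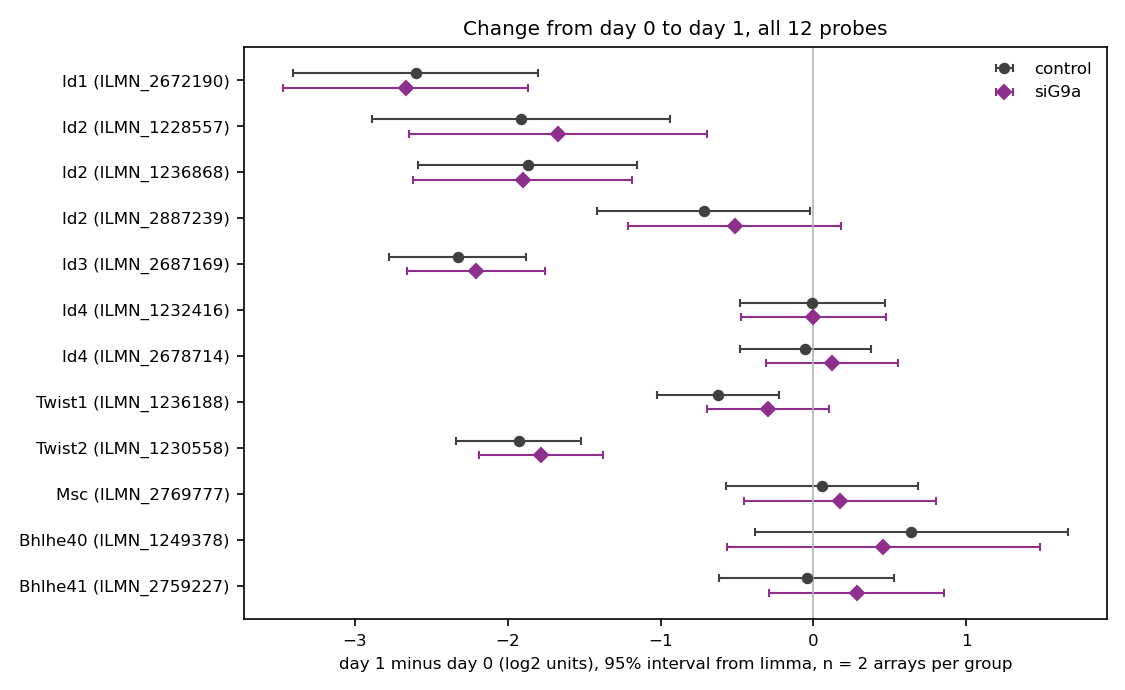
Change from day 0 to day 1 (horizontal axis, log2 units) for all 12 probes of the 9 members, with circles for control and diamonds for siG9a and bars for 95% intervals from limma (n = 2 arrays per group). The intervals of Id1, Id3, Twist2 and 2 Id2 probes lie below 0 in both treatments, and those of both Id4 probes, Msc, Bhlhe40 and Bhlhe41 include 0.

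Across the 8 arrays, the 3 largest movers followed nearly the same course. The Pearson coefficient of the lead probes was 0.987 between Id1 and Id3, 0.941 between Id1 and Id2 and 0.962 between Id3 and Twist2, as a description over arrays that form 2 sets by day. The named genes outside the members most like Id1 were Metrn, a secreted neurotrophic factor (r = 0.998), and Snrpg, a small nuclear ribonucleoprotein subunit (r = 0.997). Those most like Id3 were Tafa5 (r = 0.997) and the asialoglycoprotein receptor gene Asgr1 (r = 0.995). Those most like Twist2 were the selenoprotein gene Selenoh (r = 0.994) and the tubulin gene Tuba1c (r = 0.993). The lead probes of Id2 and Twist1 were called only in the blocked fit. Most like Id2 were Prkg2 (r = 0.995) and Anapc15 (r = 0.993), and most like Twist1 were Pxdc1 (r = 0.991) and Gabpb1 (r = 0.979). Coefficients above 0.95 were common except with Twist1. Of 20280 named genes, 358 had such a coefficient with Id1, 299 with Id3, 276 with Twist2, 174 with Id2 and 9 with Twist1.

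The comparison of siG9a with control asked whether lowering G9a altered these repressors. Twist2 was the member furthest from 0, lower in siG9a in all 4 pairs of the same day and replicate number, and the Id genes lay close to control. Limma called 0 of 9 members at day 0, at day 1 or over both days, and 0 of 29786 features (percentage called 0), with 113, 47 and 144 features at an unadjusted p under 0.05. The blocked fit called 0 as well. Twist2 stood at -0.50 ± 0.18 at day 0, -0.35 ± 0.18 at day 1 and -0.43 ± 0.13 over both days (adjusted p = 0.99998 over both days in limma, blocked 0.596). Within replicate 1 it stood at -0.64 at day 0 and -0.55 at day 1, and within replicate 2 at -0.35 and -0.15. Over both days 68 features stood lower than Twist2, and 8.43% of all features were lower in all 4 pairs.

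When the 4 differences within day and replicate number were tested in place of the group means, limma called Twist2 lower (-0.43 ± 0.087, adjusted p = 0.0194), as it did 0.453% of features, with 0.413% called higher. These 4 differences come from 2 biological replicates, so differences of the same replicate at both days are not independent cultures. No other member was called in that fit, where Twist1 stood at -0.22 ± 0.090 (adjusted p = 0.461) with 3 of 4 pairs lower. Twist1 stood at -0.46 and -0.31 at day 0, and at day 1 it stood at -0.23 in replicate 1 and 0.12 in replicate 2. The Twist1 difference was -0.38 ± 0.18 at day 0 and -0.058 ± 0.18 at day 1 in the model of group means, and the change between the days, 0.32 ± 0.25, was not called (limma adjusted p = 0.99996).

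Id1 stood at -0.092 ± 0.25 over both days (95% interval -0.66 to 0.47), Id3 at -0.017 ± 0.14 (-0.33 to 0.30), and Id4 at -0.018 ± 0.15 (-0.35 to 0.32). Id2 stood at -0.0097 ± 0.30 (-0.70 to 0.68), with its other probes at 0.030 ± 0.22 and 0.11 ± 0.22. These intervals, from the fit without the block, are wide for Id1 and Id2 and leave room for a change in either direction. In the blocked fit the SE was 0.18 for Id1 and 0.095 for Id2. The intervals do not give the size of change that would have been called, since limma called 0 features in this comparison. Msc stood at 0.059 ± 0.20 and Bhlhe40 at -0.12 ± 0.32. Bhlhe41 was higher in 3 of 4 pairs, by 0.29 in day 0 replicate 2 and 0.31 and 0.37 at day 1, and stood at -0.27 in day 0 replicate 1, which gave 0.18 ± 0.18 over both days. The interaction of treatment and day was called for no member and for 0 features in limma, with 15 features at an unadjusted p under 0.05, and in the blocked fit it was called for none either.

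**Figure D3:**
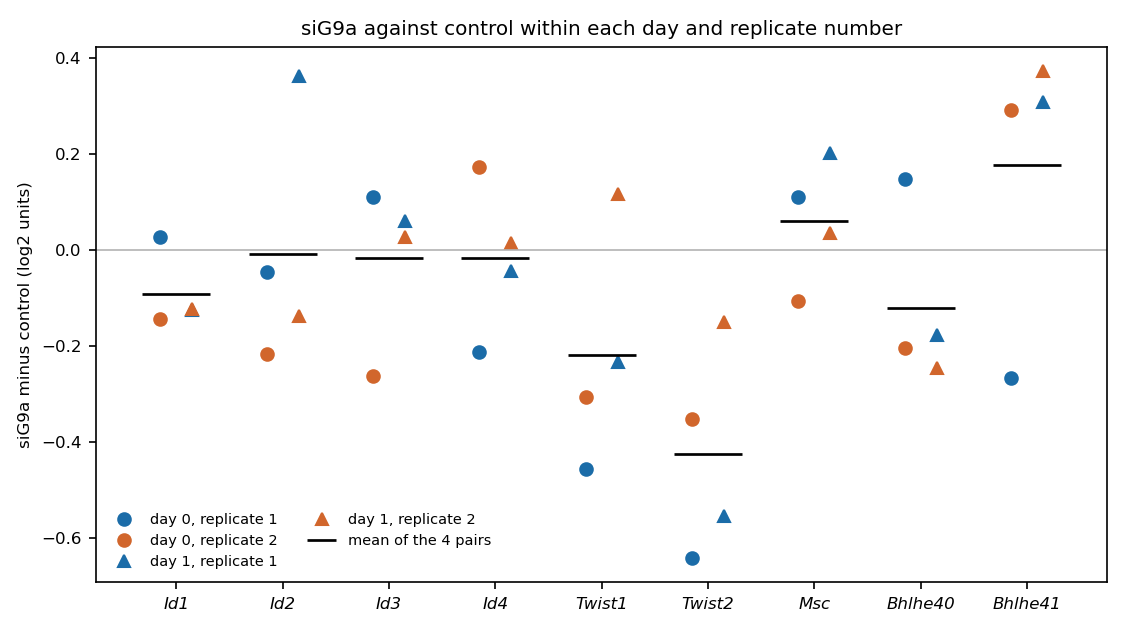
Difference of siG9a from control within each day and replicate number (vertical axis, log2 units) for the 9 lead probes, with circles for day 0, triangles for day 1, blue for replicate 1 and orange for replicate 2, and bars for the mean of the 4 pairs. Twist2 alone among the members lies below 0 in all 4 pairs, with a mean of -0.43, and the Id genes scatter on both sides of 0.

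Some of the factors that Id proteins and these repressors act on were called higher with time, in the blocked fit alone. Of 7 MyoD-family and E protein genes, the blocked fit called 3 higher and 0 lower in control and again in siG9a, where it called 3.97% and 3.51% of features higher, and limma without the block called 0. Myog, the myogenin gene of terminal differentiation, stood at -2.35 and -4.96 in control at day 0 and at 0.57 and -0.048 at day 1, so its replicates were far apart before and close after. The change was 3.92 ± 1.08 in control (blocked adjusted p = 0.00293) and 3.28 ± 1.08 in siG9a (blocked 0.00761). Myod1 rose in the blocked fit by 1.17 and 1.19 (blocked adjusted p = 0.0233 and 0.0227), and the E protein gene Tcf4 by 0.94 and 0.46 (blocked 0.00117 and 0.0399). The other 4 genes were not called in either fit, and the E protein gene Tcf12 stood at 0.38 ± 0.28 in control. Tcf3, which encodes the E proteins E12 and E47, stood at -0.039 ± 0.17 with time in control and at 0.12 ± 0.12 in siG9a against control over both days, where Myf6, a late MyoD-family factor, stood at 0.093 ± 0.12.

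Of 7 Hes and Hey genes, bHLH factors that mostly act below Notch, the blocked fit called 2 higher in both treatments, against 3.97% of features in control and 3.51% in siG9a, and limma without the block 0. Hes6, a Hes factor that promotes differentiation, changed by 1.92 ± 0.77 in control (blocked adjusted p = 0.0127) and 1.43 ± 0.77 in siG9a (blocked 0.0485). Heyl, a Notch target, changed by 1.40 ± 0.48 (blocked 0.0313) and 1.28 ± 0.48 (blocked 0.0459). Hey2 stood at -0.036 ± 0.23 and Hes5 at 0.030 ± 0.22 in control. The median of the list was 0.12 in control. In siG9a against control over both days Heyl stood at 0.46 ± 0.34 and Hes6 at 0.45 ± 0.54.

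Of 15 measured genes among other bHLH factors and repressors of myogenic bHLH activity, Zeb1, a zinc finger repressor that competes at E-boxes, rose by 1.57 ± 0.16 in control (limma adjusted p = 0.00998) and 1.24 ± 0.16 in siG9a (adjusted p = 0.0179). It was the 1 gene of that list called without the block, and it moved against Id1, Id3 and Twist2. Without the block 0.369% of features were called higher in control and 0.232% in siG9a. The blocked fit called 3.97% of features higher in control and 3.51% in siG9a. There Scx, the scleraxis gene of tendon progenitors, was also called higher (1.32 in control and 1.13 in siG9a, blocked adjusted p = 0.000286 and 0.000681). Snai1, the Snail repressor, was called lower in siG9a in the blocked fit (-0.89, blocked 0.0181) and stood at -0.34 ± 0.29 in control. Mdfic, named for a domain shared with the MyoD-family inhibitor, which another gene encodes, stood at -0.44 ± 0.18 in control. In siG9a against control over both days Snai2, the Slug repressor, stood at -0.26 ± 0.35 and Sim2 at -0.18 ± 0.16.

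BMP signalling through SMAD proteins is a known inducer of Id1, Id2 and Id3. Of 23 measured genes of that pathway, limma called 1 lower and 0 higher in control and 0 in siG9a, and the blocked fit called 3 lower and 2 higher in control and 3 of each in siG9a. Limma without the block called 0.772% of features lower and 0.369% higher in control, and 0.688% and 0.232% in siG9a. The blocked fit called 5.16% of features lower and 3.97% higher in control, and 5.78% and 3.51% in siG9a. Grem1, a secreted BMP antagonist, stood at -1.96 ± 0.32 in control (limma adjusted p = 0.0312) and stood at -1.56 ± 0.32 in siG9a (adjusted p = 0.0732, blocked 0.000686). Chrd, the antagonist chordin, moved the other way, by 2.09 ± 0.48 in control and 1.85 ± 0.48 in siG9a (blocked adjusted p = 0.000164 and 0.00031). The blocked fit called the receptor gene Acvr1 lower (-0.46 in control and -0.59 in siG9a, blocked 0.0226 and 0.00727) and the co-receptor gene Hjv higher in siG9a (0.74, blocked 0.029). Named after their values were seen, the inhibitory SMAD gene Smad6 was called lower (-0.73 and -0.51) and the co-receptor gene Rgma higher (0.85 and 0.93) in that fit. In siG9a against control over both days, Smad5, a signal-carrying SMAD, stood at -0.49 ± 0.16 (limma adjusted p = 0.9999, blocked 0.584).

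Bhlhe40 and Bhlhe41 are part of the circadian feedback loop, and 15 genes of the clock were measured. Limma called 0 of them with time in either treatment without the block, and the blocked fit called 2 higher and 1 lower in control and 1 each way in siG9a, where it called 9.13% and 9.29% of all features in either direction. Rora, a nuclear receptor of the clock, was called higher in both (1.01 and 0.74, blocked adjusted p = 0.000501 and 0.0029), and Per1, a period gene, lower in both (-0.39 and -0.54, blocked 0.0417 and 0.00979). Cry2 was called higher in control (0.46, blocked 0.0308). Nr1d2, a repressor of the clock, stood at -0.47 ± 0.21 in control. In siG9a against control over both days Tef stood at -0.15 ± 0.20 and Cry1 at -0.088 ± 0.15.

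**Figure D4:**
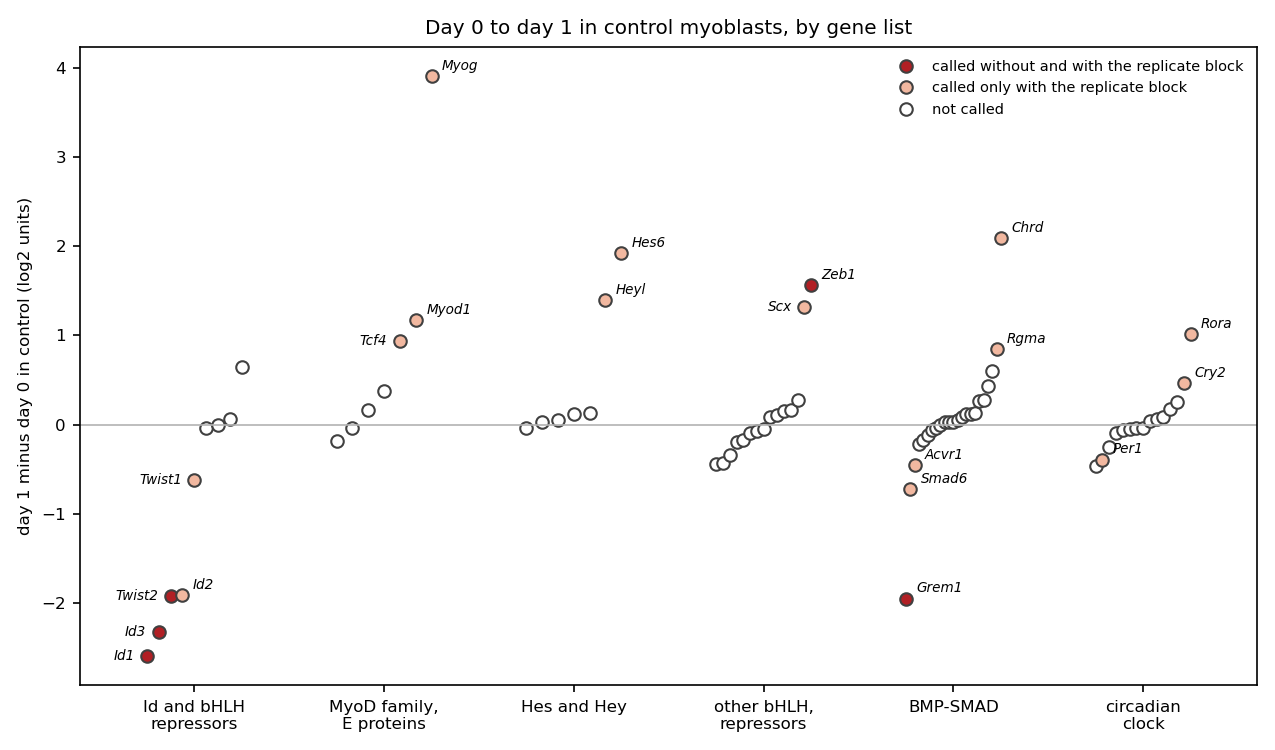
Change from day 0 to day 1 in control (vertical axis, log2 units), 1 point per gene, by list, with dark points called in limma without and with the replicate block, pale points called only with it and open points not called. The 4 lowest members of the Id and bHLH repressor list lie between -2.60 and -1.91, and Myog stands highest at 3.92.

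Of the 7 muscle markers, the blocked fit called 5 higher with time in control and 4 in siG9a, where it called 3.97% and 3.51% of features higher, and limma without the block called 0 in either. The changes of Id1, Id2, Id3 and Twist2 stand beside these in the same samples. Of the other cell types' markers the blocked fit called 2 of 7 fibroblast genes higher in control and 1 in siG9a. It called 1 of 6 adipocyte genes and 1 of 6 macrophage genes lower in both, beside 5.16% and 5.78% of features called lower. Among endothelial and nerve genes it called 0 of 6 and 0 of 4. The part of these in the members' changes was not tested.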

How the data were processed

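Per the labels, total RNA of 8 samples went onto Illumina WG-6 v2.0 arrays. The deposited values used are on a log scale, read here as log2 since no base is stated, and each probe is expressed against its own reference level. Scanner software, background correction, normalization and filters: not given in the sources used here. The 16 value columns of an unnormalized table bear names that match no sample and were left out, so detection and signal over background are unknown. The number of arrays limits the precision.

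Probes were named from the platform's gene table, updated through Entrez ID (28620 probes), accession (2637) or a unique older synonym (2343), while 2184 kept the platform's symbol and 9497 had none. The synonym step, chosen after seeing the data, assigns Idb2 and Idb4. For each gene the probe with the largest standard deviation was kept, without regard to group, giving 29786 features. Limma 3.58.1 under R 4.3.3 fitted 1 linear model of the 4 group means over 8 arrays, for 6 comparisons. Empirical Bayes moderation was used (degrees of freedom 4 residual, 4.58 prior). The fit was tested on simulated data without a gap between replicates, so that test does not bear on the use of the block. The replicate number in the titles paired the samples: deviations from group means correlated between groups with r from 0.616 to 0.869, so the blocked fit (degrees of freedom 3 residual, 5.80 prior) stands beside results it changes. Alternatives were other scalings, probe choices, robust moderation, fits of the compared groups only, within-pair differences and leaving out each array. Replicates are biological per the series' design text, with no word on separate cultures, so p-values measure the spread between these samples.

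The members and gene lists were chosen with earlier results of these data known. Genes were named by rule: all members, Ehmt2, up to 4 genes per list with the smallest p in a day comparison and 2 in siG9a against control over both days, and the 2 genes most correlated with each called member; others are marked in the text. The sequences are RefSeq's (GRCm38.p6). Of the list genes, some were not measured: 3 of 26 BMP genes, 2 of 17 clock genes, 1 of 16 other bHLH genes and 2 of 6 nerve genes were not analysed here.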

Additional observations from a re-analysis of the deposited data

How the results depend on the processing

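The counts of called members depended on the replicate block, on the scaling and on single arrays. In control, 3 members were called with time without the block, 5 with it, 5 with median centring and the block, 4 with quantile normalization and the block, and 0 with quantile normalization alone, which also lowered the features called from 340 to 2. In siG9a the counts were 3, 4, 4, 4 and 0, and features called fell from 274 to 12. The block raised the features called to 2718 in control and 2768 in siG9a, of 29786. With median centring and the block they were 2684 and 3039, and with quantile normalization and the block 1050 and 1192. Median centring without the block called 2 members in each and 89 and 146 features, losing Id1 (adjusted p = 0.0834 and 0.0645). Quantile normalization also lost Id3 (0.0894 and 0.059) and Twist2 (0.0963 and 0.0556), and Id1 (0.2 and 0.145). With the block, Id1, Id2, Id3 and Twist2 were called in both treatments under either scaling and without any single array, and Twist1 in control was not called with quantile normalization (adjusted p = 0.0657). Over the fits that left out 1 array, the count ran from 0 to 6 in control and from 0 to 4 in siG9a. It was 0 in the fit without the block when control day 0 replicate 1 or 2 was left out, and, in siG9a, when replicate 2 of day 0 or day 1 was. It was 6, with Bhlhe40 (1.06, adjusted p = 0.041) added, when control day 0 replicate 2 was left out of the blocked fit. The fits with the block and another scaling or a missing array were chosen after seeing the data. A lone array in a group is assumed to vary like the others. Over both days the within-pair fit, which also holds the replicate number, called 1 member, Twist2, where every other fit called 0 members in siG9a against control. It called 258 features, and blocked fits with 1 siG9a array left out called between 0 and 5. All probes, the mean of probes, robust moderation and the fit of the compared groups only changed no member count by more than 1.5 times, and the last called Id2 as well, with 447 features in control and 848 in siG9a. Without the block, features called ran from 6 to 355 in control and from 3 to 355 in siG9a over the arrays left out. The cause of these shifts was not tested.

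Values near 0 changed sign. With the mean of probes, Id4 stood at 0.061 with time in siG9a and at 0.020 in siG9a against control at day 1, and Id2 at 0.042 over both days. With median centring, Id4 and Bhlhe40 stood at 0.020 and 0.011 in siG9a against control at day 0, with the block as without. With quantile normalization, Id4 stood at 0.035 at day 0, Id2 at 0.034 and Id3 at 0.022 over both days, and the difference of the siG9a effects of Twist2 at -0.082. Each range below crossed 0 and covers 16 fits that left out 1 array, without and with the block. With 1 array missing, its partner of the same number stays in the group. In the fits without the block the gap between replicates then enters the estimate. Some ends of the ranges came from fits with the block, such as 0.16 for Id4 in control. For the change with time in control the range was -0.17 to 0.16 for Id4, -0.25 to 0.36 for Msc, -0.041 to 1.32 for Bhlhe40 and -0.35 to 0.26 for Bhlhe41. For the change with time in siG9a the range was -0.20 to 0.19 for Id4, -0.022 to 0.37 for Msc and -0.048 to 0.96 for Bhlhe40. For siG9a against control at day 0 the range was -0.43 to 0.31 for Id1, -0.61 to 0.34 for Id2, -0.28 to 0.13 for Id3, -0.22 to 0.18 for Id4, -0.30 to 0.31 for Msc, -0.71 to 0.65 for Bhlhe40 and -0.30 to 0.32 for Bhlhe41. For siG9a against control at day 1 the range was -0.58 to 0.34 for Id1, -0.38 to 0.61 for Id2, -0.12 to 0.20 for Id3, -0.18 to 0.15 for Id4, -0.22 to 0.10 for Twist1, -0.14 to 0.37 for Msc and -0.53 to 0.11 for Bhlhe40. For siG9a against control over both days the range was -0.32 to 0.14 for Id1, -0.26 to 0.24 for Id2, -0.12 to 0.085 for Id3, -0.12 to 0.081 for Id4, -0.093 to 0.21 for Msc and -0.46 to 0.22 for Bhlhe40. For the difference of the siG9a effects the range was -0.033 to 0.32 for Twist2. The depth of signal over background is unknown, which limits what values near 0 can show.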
